A study of Mus musculus with 292 samples.

Results

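The genes described here are the Zfp zinc finger genes, taken as all genes whose annotated symbol begins with Zfp followed by a digit. They numbered 137 of the 11639 genes that could be named on the array, and 122 of them had 1 probe. The other 15 had more, and each was represented by its most variable probe, the one of largest standard deviation (SD) over the arrays. Of the 137 symbols, 134 rested on a gene identifier of the mouse gene table, and Zfp180, Zfp265 and Zfp622 kept the symbol of the array annotation because their identifiers were not in that table, which lists Zfp265 as an older name of Zranb2.

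Zfp is the mouse symbol for zinc finger protein, and it names genes by protein architecture more than by pathway. Most such proteins carry tandem C2H2 fingers, short folds that each hold a zinc ion and read a few bases of DNA, and many also carry a KRAB domain. KRAB recruits the corepressor Trim28, which brings the histone methyltransferase Setdb1 and heterochromatin proteins to the bound site, and the best known targets are retroelements and imprinted loci. KRAB genes lie in dense clusters that arose by duplication, several of them on chromosomes 7 and 17 in the mouse. Other bearers of the symbol work on RNA, such as the CCCH proteins of the Zfp36 family, which bind AU-rich elements and speed the decay of mRNA.

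Brain RNA came from 292 F2 mice, females and males, obtained by crossing a pair of inbred strains, C57BL/6J and C3H/HeJ, in both orders and intercrossing the F1 generation. All received chow of 4% fat up to 8 weeks of age, followed by 12 weeks of a Western diet (42% fat, 0.15% cholesterol), and brains were taken at 20 weeks of age following 12 h without food. Each mouse was hybridised once, labelled with Cy3, against a Cy5 pool described as equal parts of the RNA of every sample. On that description each mouse was measured against an average that contained it, and the make-up of the pool was not tested. The labels gave neither the sex, the cross direction nor the genotype of a single mouse, and all mice formed 1 group. Whole brain tissue is a mixture of cell types, and in such bulk RNA fewer cells of a type and less RNA per cell cannot be told apart.

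Values are treated as log10 ratios of mouse to pool, so that 0 means the level of the pool and 0.1 means 1.26-fold above it. Neither the base of the logarithm nor the direction of the ratio was stated, and turning the direction would turn the sign of every value and every difference below together. The correlation between 2 arrays, computed over all probes, had its median at 0.109 and its extremes at -0.638 and 0.795, and it was under -0.3 in 3.39% of pairs. With ratios to a pool described as made from the same mice, different mice can lie on opposite sides of the pool, so the single direction was kept. Ratios carry no absolute level, so levels were not compared between genes and the tissue label could not be checked by the presence of brain markers.

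The labels offered only a mouse number, from 51 to 362, and a spelling difference in the description text, called form 1 and form 2 here. The main comparison set the 141 mice numbered from 213 against the 151 mice numbered up to 212, and the difference of their mean log10 ratios is called the step. All 77 mice of form 2 had numbers up to 212 and were interleaved with 74 mice of form 1. The mice from 213, the form 2 mice and the form 1 mice up to 212 are called the 3 sets, and a set mean is the mean of a gene over 1 of them. The labels gave no meaning to the split at 213 or to the form and do not call any of the sets a batch. What else changed between these sets cannot be told apart from the number, and each mouse was 1 animal on 1 array, so biological spread and measurement error cannot be told apart.

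Zfp genes differed across the step more often on the higher side than on the lower. In mice from 213, 27 of the 137 Zfp genes (19.7%) were called higher and 8 (5.84%) were called lower, where a call needed a limma adjusted p under 0.05 over all probes and a difference of at least 1.2-fold. Among all named genes 4.06% were called higher and 3.95% lower, and among all probes the shares were 3.85% and 2.89%. The step was above 0 for 89 of the 137 Zfp genes (65%), against 45.1% of all named genes, and its median was 0.0186 against -0.00315. By adjusted p alone 70 Zfp genes (51.1%) were higher and 40 (29.2%) lower, beside 29.7% and 38.6% of all named genes, so most genes passed by adjusted p and the fold threshold sets the count. The 27 higher genes had a median difference of 1.3-fold and reached 1.73-fold, and the 8 lower genes lay between 1.2-fold and 1.4-fold.

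Promoter sequences are shown for 4 of these genes because the step calls and the letters of the promoters can be set side by side. Each runs 5′ to 3′ on the strand of the gene, from 250 bases before the annotated start to 50 bases after it, from RefSeq on assembly GRCm38.p6. Capitals mark each CCAAT, the letters bound by the factor NF-Y, or its reverse complement ATTGG. The regions are chr11:58904176-58904475 on the minus strand for Zfp39, chr8:4612920-4613219 on the plus strand for Zfp958, chr6:83914103-83914402 on the plus strand for Zfp638 and chr12:80112964-80113263 on the minus strand for Zfp36l1. Zfp39, Zfp958 and Zfp638 were among the genes with the largest higher steps, and Zfp36l1 had the largest lower step.
Zfp39: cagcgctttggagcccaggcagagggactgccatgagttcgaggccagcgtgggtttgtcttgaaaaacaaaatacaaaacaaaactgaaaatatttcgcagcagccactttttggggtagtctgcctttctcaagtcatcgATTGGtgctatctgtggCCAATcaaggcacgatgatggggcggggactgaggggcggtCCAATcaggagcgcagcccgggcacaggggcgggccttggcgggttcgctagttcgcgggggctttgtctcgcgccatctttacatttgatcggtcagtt
Zfp958: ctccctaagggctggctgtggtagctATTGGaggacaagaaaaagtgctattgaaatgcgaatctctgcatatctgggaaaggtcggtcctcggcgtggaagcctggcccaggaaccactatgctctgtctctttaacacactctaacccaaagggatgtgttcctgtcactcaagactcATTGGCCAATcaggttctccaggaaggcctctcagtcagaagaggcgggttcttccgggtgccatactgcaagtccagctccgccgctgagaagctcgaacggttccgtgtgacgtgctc
Zfp638: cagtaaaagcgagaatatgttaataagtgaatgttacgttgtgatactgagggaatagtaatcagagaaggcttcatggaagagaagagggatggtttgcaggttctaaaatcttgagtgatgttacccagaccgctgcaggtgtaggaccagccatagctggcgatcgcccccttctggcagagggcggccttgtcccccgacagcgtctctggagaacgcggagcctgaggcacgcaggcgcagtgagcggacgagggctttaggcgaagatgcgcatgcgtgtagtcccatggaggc
Zfp36l1: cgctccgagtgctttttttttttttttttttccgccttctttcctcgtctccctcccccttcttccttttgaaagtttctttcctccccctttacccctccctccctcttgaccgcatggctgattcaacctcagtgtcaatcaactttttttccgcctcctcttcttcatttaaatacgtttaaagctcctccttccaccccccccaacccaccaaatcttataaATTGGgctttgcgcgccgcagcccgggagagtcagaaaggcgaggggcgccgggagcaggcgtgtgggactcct
Zfp39 and Zfp958 each held the letters at 3 places, Zfp36l1 at 1 and Zfp638 at 0. The promoters of Zfp292, with a larger higher step than Zfp958, and of Zfp777, called lower, are not printed and held them at 0 places.

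Over all Zfp genes, a promoter was found in the RefSeq table for 109 of the 137, the first listed where a gene had several. CCAAT on either strand stood in 16 of the 23 promoters of genes called higher (69.6%), in 2 of the 8 of genes called lower (25%) and in 25 of the 78 of genes not called (32.1%). The share was 38.0% over 8578 promoters of all named genes and 41.8% over the 342 promoters of all named genes called higher. The YY1 core AAGATGGC stood in 4 of the 23 promoters of Zfp genes called higher (17.4%), 0 of the 8 lower, 3 of the 78 not called (3.85%), 3.35% of those of all named genes and 6.14% of those of all named genes called higher. The GC box GGGCGG stood in 56.5% of the promoters of Zfp genes called higher, 37.5% of those called lower, 48.7% of those not called and 54.5% of those of all named genes. TATAAA stood in 1 of the 23 promoters of Zfp genes called higher (4.35%), 3 of the 8 lower (37.5%), 3 of the 78 not called (3.85%) and 10.8% of those of all named genes. The 4 motifs, searched on both strands and each counted without regard to overlap with another, were chosen after the steps were known, no test was run on their shares, and a match is a string of letters and not a site shown to be bound.

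Zfp638 gave one of the clearest separations. Its human counterpart is a nuclear protein that helps silence unintegrated retroviral DNA. In mice from 213 the log10 ratio of Zfp638 ran from 0.0225 over a median of 0.219 to 0.366, against -0.195, -0.0106 and 0.21 as lowest, median and highest in mice up to 212. All 141 mice from 213 were above the pool and 82 of them were above every mouse up to 212, though the ranges still overlapped. The means were 0.22 ± 0.0699 in mice from 213 (SD, n = 141) and -0.0105 ± 0.0904 in mice up to 212 (SD, n = 151), a step of 0.231 ± 0.00947 (SE) or 1.7-fold (limma adjusted p = 2.76e-69).

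Zfp958 separated the sets even further. Its log10 ratio had a lowest, median and highest value of 0.00771, 0.18 and 0.316 in mice from 213, against -0.14, 0.00256 and 0.154 in mice up to 212. Of the 141 mice from 213, 94 lay above every mouse up to 212, the largest such number among the 35 genes called. The step was 0.178 ± 0.00693 (SE) or 1.51-fold (limma adjusted p = 1.31e-73), and the split by number took 69.4% of the variance of the gene across mice.

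Zfp39 had the largest step, and it differed from the previous pair in its spread. Its log10 ratio had a lowest, median and highest value of -0.0443, 0.166 and 0.336 in mice from 213, against -0.6, -0.0508 and 0.391 in mice up to 212. None of the mice from 213 lay above the highest mouse up to 212, and the mice up to 212 reached far lower. The SD was 0.0794 in mice from 213 and 0.232 in mice up to 212, with a step of 0.237 ± 0.0204 (SE) or 1.73-fold (limma adjusted p = 9.72e-25). A second probe of Zfp39 had a step of 0.0344, under the fold threshold, and followed the first probe with r = 0.511 after the mean of each set was removed (n = 292 mice).

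Zfp292, a large zinc finger gene whose human counterpart is mutated in neurodevelopmental disorders, had the same shape. The lowest, median and highest log10 ratios were 0.00369, 0.197 and 0.392 in mice from 213 and -0.501, -0.0098 and 0.321 in mice up to 212. All mice from 213 were above the pool, while the mice up to 212 lay on both sides of it and reached further below than above. The step was 0.221 ± 0.0147 (SE) or 1.66-fold (limma adjusted p = 1.52e-36).

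**Figure D1:**
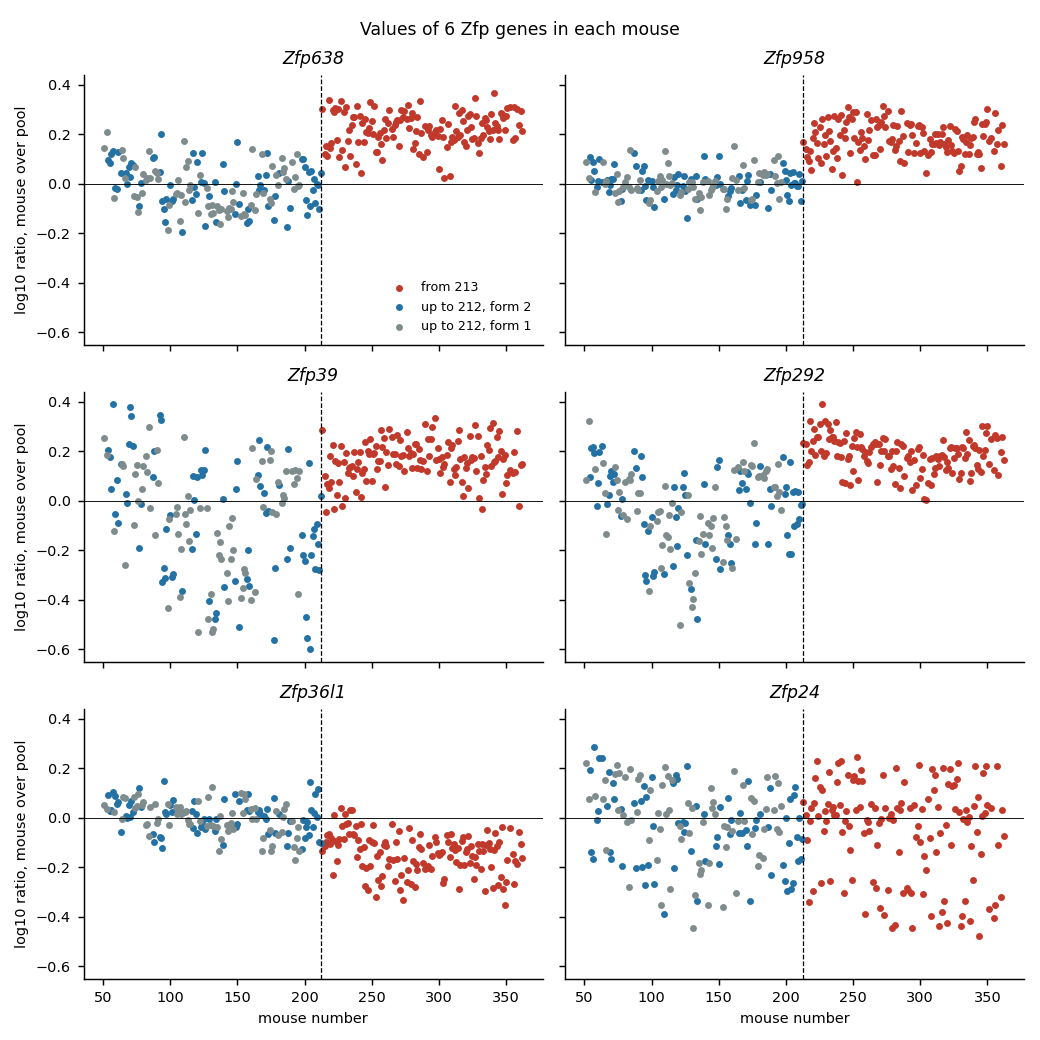
Log10 ratio of mouse to pool (y axis) for Zfp638, Zfp958, Zfp39, Zfp292, Zfp36l1 and Zfp24 in each of the 292 mice, by mouse number (x axis), with red for mice from 213, blue for form 2 and grey for form 1 up to 212, and a dashed line at the split. Zfp638 and Zfp958 change level at the line, Zfp39 and Zfp292 lose their low values there, Zfp36l1 declines past it, and Zfp24 keeps both high and low mice on both sides.

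The other 4 of the 8 genes with the largest higher steps were Zfp51, Zfp120, Zfp97 and Zfp644. Zfp51 averaged 0.16 ± 0.0644 in mice from 213 and -0.00135 ± 0.0661 in mice up to 212, a 1.45-fold step (limma adjusted p = 1.08e-58), and 57 mice from 213 lay above every mouse up to 212. Zfp120 averaged 0.155 ± 0.082 in mice from 213 and -0.00522 ± 0.0893 in mice up to 212, a 1.45-fold step (adjusted p = 2.36e-40). Zfp97 averaged 0.159 ± 0.0714 in mice from 213 and -0.000918 ± 0.0788 in mice up to 212, a 1.45-fold step (adjusted p = 3.36e-48). Zfp644 averaged 0.139 ± 0.0627 in mice from 213 and -0.00648 ± 0.0858 in mice up to 212, a 1.4-fold step (adjusted p = 4.84e-42). In each of these genes the sets overlapped, and between 26 and 57 of the mice from 213 lay above the highest mouse up to 212. The remaining 19 genes called higher were Zfp959, Zfp35, Zfp810, Zfp994, Zfp180, Zfp40, Zfp386, Zfp617, Zfp37, Zfp825, Zfp101, Zfp53, Zfp189, Zfp1, Zfp62, Zfp319, Zfp354b, Zfp30 and Zfp281, with steps between 0.0795 and 0.144.

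Zfp36l1 had the largest lower step. It encodes a CCCH protein that binds AU-rich elements and promotes mRNA decay. Its log10 ratio had a lowest, median and highest value of -0.351, -0.132 and 0.0388 in mice from 213, against -0.171, 0.0082 and 0.148 in mice up to 212. Only 5 of the 141 mice from 213 were above the pool, against 81 of the 151 mice up to 212, and 50 mice from 213 lay below every mouse up to 212. The step was -0.146 ± 0.00861 (SE) or 1.4-fold (limma adjusted p = 1.41e-43), and a second probe gave -0.126 (adjusted p = 2.01e-31) and followed the first with r = 0.962 after the mean of each set was removed (n = 292 mice).

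The other 7 genes called lower had smaller steps, from -0.111 for Zfp777 to -0.0807 for Zfp598. Zfp777 averaged -0.115 ± 0.0544 in mice from 213 and -0.00369 ± 0.0614 in mice up to 212 (limma adjusted p = 1.98e-41). Zfp598, a ubiquitin ligase that marks collided ribosomes, averaged -0.0831 ± 0.0474 in mice from 213 and -0.00236 ± 0.0565 in mice up to 212 (adjusted p = 2.62e-30). Zfp503, a regulator of striatal development, averaged -0.0833 ± 0.0486 in mice from 213 and 0.00416 ± 0.0604 in mice up to 212 (adjusted p = 1.02e-31). The remaining genes were Zfp553, Zfp91, Zfp428 and Zfp219, with steps of -0.101, -0.0941, -0.0905 and -0.0872. No gene had all mice of one set beyond all mice of the other.

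**Figure D2:**
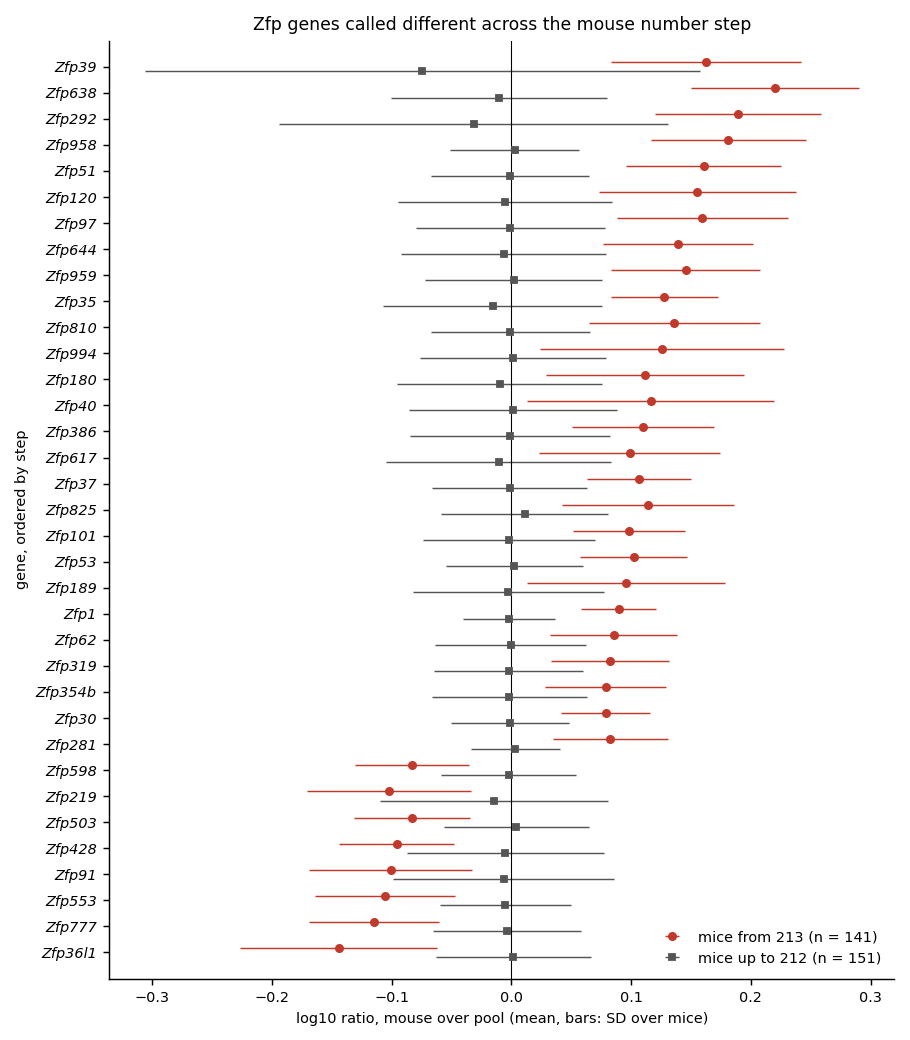
Mean log10 ratio of mouse to pool (x axis) with bars of 1 SD over mice for the 35 Zfp genes called in the step (y axis, ordered by step), red circles for mice from 213 (n = 141) above grey squares for mice up to 212 (n = 151). In all 35 genes the grey mean lies closer to 0, the level of the pool, than the red mean, and the grey bar is widest for Zfp39 and Zfp292. Whether both sets entered the pool in equal parts was not tested.

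Genes close to the threshold show how fine the count is. Zfp281, Zfp30 and Zfp354b lay just inside with differences of 1.201, 1.202 and 1.203-fold, and Zfp207, Zfp433 and Zfp354a just outside with 1.196, 1.195 and 1.186-fold. Of the 15 genes with several probes, 5 had the representing probe called. Both probes of Zfp36l1 and 2 of the 3 probes of Zfp825 were called, while the second probes of Zfp39, Zfp959 and Zfp319 were not, and that of Zfp319 had a step of -0.0229. Zfp111 was the opposite case, with a representing probe that was not called (step 0.0146) and a second probe that was (0.0925).

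The step was set against a gradual change over mouse number. With the 20 mice on each side of the split alone, all 35 called genes kept the sign of their step, 31 had a limma adjusted p under 0.05, and 22 passed both criteria. The exceptions at adjusted p were Zfp36l1 (window step -0.0414, adjusted p = 0.188), Zfp189 (0.0345, adjusted p = 0.315), Zfp180 (0.0298, adjusted p = 0.459) and Zfp810 (0.0495, adjusted p = 0.058). A search over all numbers for the split that took the most variance, run after the steps were known, returned 213 for 23 of the 35 genes (65.7%), against 41.1% of the 933 named genes called. For Zfp36l1 it returned 239 and for Zfp91 it returned 244, both inside the later set. Against form 1 and form 2 mice up to 212 taken separately, 24 of the 27 higher and 7 of the 8 lower genes were called in both.

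Change over number also went on within each set. From 213 on, 33 Zfp genes (24.1%) had a rising and 12 (8.76%) a falling slope at a limma adjusted p under 0.05, beside 12.8% and 13.5% of all named genes. Up to 212, with form as a term, 18 (13.1%) had a rising and 31 (22.6%) a falling slope, beside 20.2% and 18.2%. Among the lower genes, Zfp91 (-0.0784 ± 0.0115 per 100 numbers, SE, adjusted p = 4.03e-08) and Zfp36l1 (-0.0502 ± 0.0154, adjusted p = 0.00986) went on falling from 213. The mean of Zfp36l1 was -0.113 ± 0.0875 in mice 213 to 262 (SD, n = 49), -0.161 ± 0.073 in mice 263 to 312 (n = 45) and -0.16 ± 0.0765 in mice 313 to 362 (n = 47). Zfp958 was flat by comparison, at 0.18 ± 0.0739, 0.189 ± 0.0622 and 0.175 ± 0.0572 in the same ranges, with a slope of -0.00311 per 100 numbers (adjusted p = 0.883).

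Calls were also counted by chromosome. Chromosome 17 held 17 Zfp genes, of which 7 were called higher (Zfp51, Zfp97, Zfp959, Zfp994, Zfp40, Zfp101 and Zfp53), 1 lower (Zfp598), and 15 had a step above 0. Among the 495 other named genes of chromosome 17, 2.83% were called higher and the median step was -0.00769, against 0.0591 for the Zfp genes there. Chromosome 7 held the most Zfp genes, 26, and only 1 was called higher and 2 lower, with 1.6% of its other named genes called higher. On chromosome 8, 4 of 10 Zfp genes were called higher (Zfp958, Zfp617, Zfp1 and Zfp319), beside 3.44% of the other named genes. Higher calls were as frequent on some chromosomes with fewer Zfp genes. On chromosome 4, 3 of 7 were called higher, and on chromosome 11, 3 of 9, where 8 steps were above 0 and the median was 0.0741. The other named genes called higher made up 3.44% on chromosome 4 and 2.17% on chromosome 11. On the X chromosome 0 of 5 Zfp genes were called. The difference between chromosomes was not tested. Near-identical paralogues in these clusters can hybridise to each other's probes, and without the probe sequences that cross-hybridisation was not tested.

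**Figure D3:**
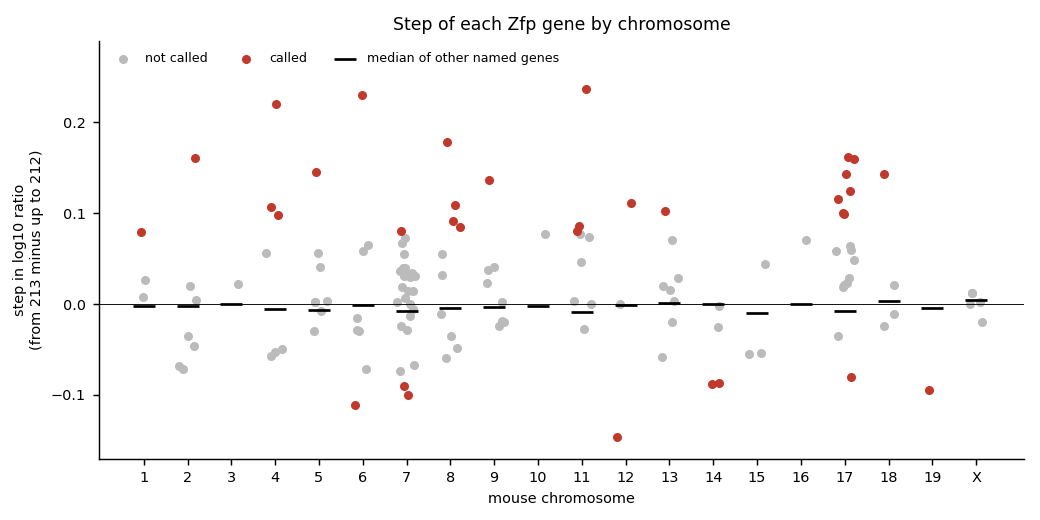
Step in log10 ratio, mice from 213 minus mice up to 212 (y axis), of the Zfp genes with a known chromosome (x axis), red where called and grey where not, with a black dash at the median of the other named genes of that chromosome. Chromosome 17 has 7 red points above 0, chromosome 7 has many grey points near 0, and every dash lies close to 0.

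Zfp genes with known roles were read as lists. Of the 4 measured CCCH genes of mRNA decay, 0 were called higher and 1, Zfp36l1, lower, and all 4 steps were below 0. Zfp36, the founding member, had a step of -0.00507 (limma adjusted p = 0.225) and Zfp36l2 one of -0.0349 (adjusted p = 7.49e-21, 1.08-fold). Among the 8 measured genes of RNA binding and translation, Zfp638 was called higher and Zfp598 lower, and Zfp106, an RNA-binding protein needed by motor neurons, had a step of 0.00442 (adjusted p = 0.382). Of the 6 neural development genes, Zfp292 was called higher and 0 were called lower. Zfp423, which acts in cerebellar development and in the commitment of fat cell precursors, had a step of -0.0486 (adjusted p = 1.04e-07, 1.12-fold), and Zfp335, whose human counterpart is mutated in a microcephaly, had -0.0353 (adjusted p = 2.24e-08).

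The remaining role lists of Zfp genes held 1 call, Zfp281. None of the 4 genes of imprint and embryo was called: Zfp57 and Zfp445, which protect imprinted methylation, had steps of 0.0213 (limma adjusted p = 0.0402) and 0.00284 (adjusted p = 0.554), and Zfp42, a marker of pluripotent cells, had 0.0549 (adjusted p = 1.92e-08, 1.13-fold). A second probe of Zfp42 had a step of -0.00396 (limma adjusted p = 0.501). Of the promoter-binding genes, Zfp281 was called higher with a step of 0.0795, and Zfp148 was not, with 0.0705 and 1.18-fold, so the median step of these 2 genes was 0.075, against 0.0186 over all Zfp genes. The other probes of Zfp148 had steps of 0.0761, -0.0236 and -0.00899, so this median depends on the probe that represents the gene. Of the 4 genes of adipocytes and metabolism 0 were called, and of the 3 retroelement silencing genes listed 0 were measured. The 11 measured partners of KRAB repression gave 0 calls: Trim28 had a step of -0.0257 (adjusted p = 6.85e-06, 1.06-fold), Setdb1 -0.0488 (adjusted p = 1.67e-15, 1.12-fold), and the heterochromatin protein genes Cbx1, Cbx3 and Cbx5 had 0.0125, 0.0417 and 0.025. Relatives outside the symbol rule were counted after the steps were known: 0 of 26 Zbtb genes were called higher and 2 (7.69%) lower, 3 of 10 Zscan and Zkscan genes (30%) higher and 0 lower, and 0 of 25 Zic, Klf and Sp genes higher and 3 (12%) lower. The shares were 19.7% higher and 5.84% lower for the Zfp genes, and 4.06% and 3.95% for all named genes. The median step of the Zscan and Zkscan genes was 0.0301, so higher calls were not particular to the Zfp symbol.

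Some markers of cell types differed across the step as well. Snap25, a synaptic gene, was higher in mice from 213 (step 0.125, limma adjusted p = 9.88e-37), while the myelin gene Cnp (-0.11, adjusted p = 1.04e-30) and the microglial genes Trem2 (-0.0884, adjusted p = 3.31e-21) and Tmem119 (-0.0877, adjusted p = 6.45e-25) were lower. Markers of the same lists did not all share these signs. The neuronal gene Gad1 had a step of -0.00402 (limma adjusted p = 0.806), while the myelin gene Mal (0.0349, adjusted p = 4.16e-08) and the microglial gene Ctss (0.0413, adjusted p = 2.91e-08) were higher, under the fold threshold. The myelin gene Mog (-0.00158, adjusted p = 0.575) and the microglial gene C1qb (-0.00157, adjusted p = 0.859) had steps near 0. Of the 3 neuronal markers measured 1 was called, of the 5 myelin markers 1, of the 6 microglial markers 2, of the 4 erythrocyte markers 2 lower (Hbb-b1 and Hba-a1), of the 5 choroid plexus markers 1 (Ttr, higher) and of the 4 pituitary markers 1 (Gh, higher). Over all named genes 4.06% were called higher and 3.95% lower. The mean log10 ratio of the microglial list was -0.0403 in mice from 213 against -0.00872 in form 1 and -0.0028 in form 2 mice up to 212, and that of the erythrocyte list was -0.113 against -0.0545 and -0.00752. The part of cell composition in the step of the Zfp genes was not tested.

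Form 2 and form 1 mice up to 212 gave a comparison without the number split. No Zfp gene was called, in either direction, beside 0.206% of all named genes, and 0 passed a limma adjusted p under 0.05 with no fold threshold. At an unadjusted p under 0.05 there were 3 Zfp genes (2.19%), beside 7.97% of all named genes, and the largest difference was 1.07-fold. In the same comparison the Y-linked genes Eif2s3y and Kdm5d differed by 1.85 and 1.33 in log10 ratio, so the sets were far from alike in other genes. The comparison of forms is thus also one of mice low and mice high in Y-linked genes, and no label gave the sex. Removal of set means takes out this difference between the forms. It leaves the spread within mice from 213, where the SDs of Eif2s3y and Kdm5d were 0.838 and 0.565. Eif2s3y averaged 0.253 in form 2 and -1.6 in form 1 mice, and Kdm5d 0.233 and -1.1 in that order. The 5 X-linked Zfp genes, Zfp185, Zfp275, Zfp280c, Zfp36l3 and Zfp92, differed by between -0.00214 and 0.0174 (adjusted p from 0.184 to 0.998). Among the partners, Uhrf1, which reads hemimethylated DNA, averaged 0.0409 in form 2 and -0.0629 in form 1 mice, a difference of 0.104 ± 0.0106 (SE, adjusted p = 9.79e-15).

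Spread across mice was the second property read over the whole family. The median SD of a Zfp gene was 0.0627, corresponding to 1.16-fold, against 0.0512 or 1.13-fold for all named genes, and after removal of set means it was 0.0556 against 0.0477. It ran from 0.0185 for Zfp11 to 0.212 for Zfp39, and 8 Zfp genes lay above 0.12, the 95th percentile of all named genes. These 8 were Zfp39, Zfp24 (0.178), Zfp292 (0.168), Zfp111 (0.152), Zfp934 (0.15), Zfp638 (0.141), Zfp146 (0.135) and Zfp871 (0.123). Zfp146 owed its place to 1 mouse from 213 at the limit of 2, and without that mouse its SD was 0.0698. The SD was smaller in mice from 213 than in form 1 and in form 2 mice up to 212 for 26 of the 35 called genes and for 82 of all 137 Zfp genes (59.9%), against 56.9% of all named genes. The share among all named genes called in the step was not computed, so the 26 have no like count beside them.

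Discrete levels were sought with mixtures of 1 to 3 normal distributions of equal variance, called where the Bayesian information criterion improved by more than 10, means lay over 3 within-level SDs apart and each level held at least 5% of the mice. Such levels were found in 11 Zfp genes (8.03%), each with 2 levels, beside 6.5% of all named genes and 6.57% of all probes. Close to the limit of separation, Zfp653 lay just inside at 3.03 SDs and Zfp1 just outside at 2.96. The genes were Zfp39, Zfp292, Zfp35, Zfp239, Zfp110, Zfp24, Zfp638, Zfp287, Zfp2, Zfp653 and Zfp521. With unequal variances allowed, only Zfp35, Zfp110 and Zfp638 of these 11 were still called. Zfp39, Zfp292 and Zfp24 were among those lost, so their levels depend on the assumption of equal variance. With arrays scaled to equal spread, Zfp110, Zfp287, Zfp2, Zfp653 and Zfp521 were no longer called.

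Most of these levels followed the mouse number. In Zfp39 the levels stood at -0.312 and 0.129, a 2.76-fold distance, and the lower level held 0 of the 141 mice from 213 against 59 of the 151 mice up to 212 (39.1%). Zfp292 had 0 of 141 mice from 213 in its lower level against 56 of 151 (37.1%) up to 212, and Zfp35 had 0 against 67 (44.4%). In Zfp239 and Zfp110 the lower level likewise held 0 mice from 213, against 63 and 36 mice up to 212. For Zfp638 it held 6 mice from 213 (4.26%) against 123 (81.5%) up to 212. After the mean of each set was removed, 2 Zfp genes (1.46%), Zfp24 and Zfp287, still had levels, beside 4.41% of all named genes.

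The low values of Zfp39 and Zfp292 were not spread evenly over the numbers up to 212. The lower level of Zfp39 held 7 of 46 mice numbered 51 to 100, 26 of 48 numbered 101 to 150 and 26 of 57 numbered 151 to 212. For Zfp292 the counts in these ranges were 8, 30 and 18. The mean of Zfp292 was 0.0398 ± 0.143, -0.138 ± 0.161 and 0.000317 ± 0.134 in that order (SD), and 0.219 ± 0.0696 in mice 213 to 262. Both genes had their lowest mean at numbers 101 to 150.

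In the fit over all mice, Zfp24 and Zfp287 had both levels on each side of the split, though neither was called within any of the 3 sets alone. The lower level of Zfp287 held 135 of the 141 mice from 213 (95.7%) and 142 of the 151 mice up to 212 (94%). Its upper level held 15 mice (5.14%), close to the limit of 5%, and 2 mice in the fit to mice from 213 alone. Zfp287 was not called with unequal variances or with arrays scaled to equal spread. Zfp24 encodes a zinc finger protein that oligodendrocytes need to form myelin. Over all mice its levels stood at -0.283 and 0.045, a 2.13-fold distance, and the lower level held 36 of the 141 mice from 213 (25.5%), 22 of the 77 form 2 mice (28.6%) and 15 of the 74 form 1 mice up to 212 (20.3%). Its step was -0.0245 (limma adjusted p = 0.296). In mice from 213 alone the best fit had 3 levels, at -0.346, -0.00882 and 0.164, with 36, 72 and 33 mice (25.5%, 51.1% and 23.4%), and the closest pair of means lay 2.68 SDs apart, short of the limit for a call. At an autosomal locus an F2 intercross carries the genotypes in shares of 25%, 50% and 25%, and no genotype was available here to set beside the levels.

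**Figure D4:**
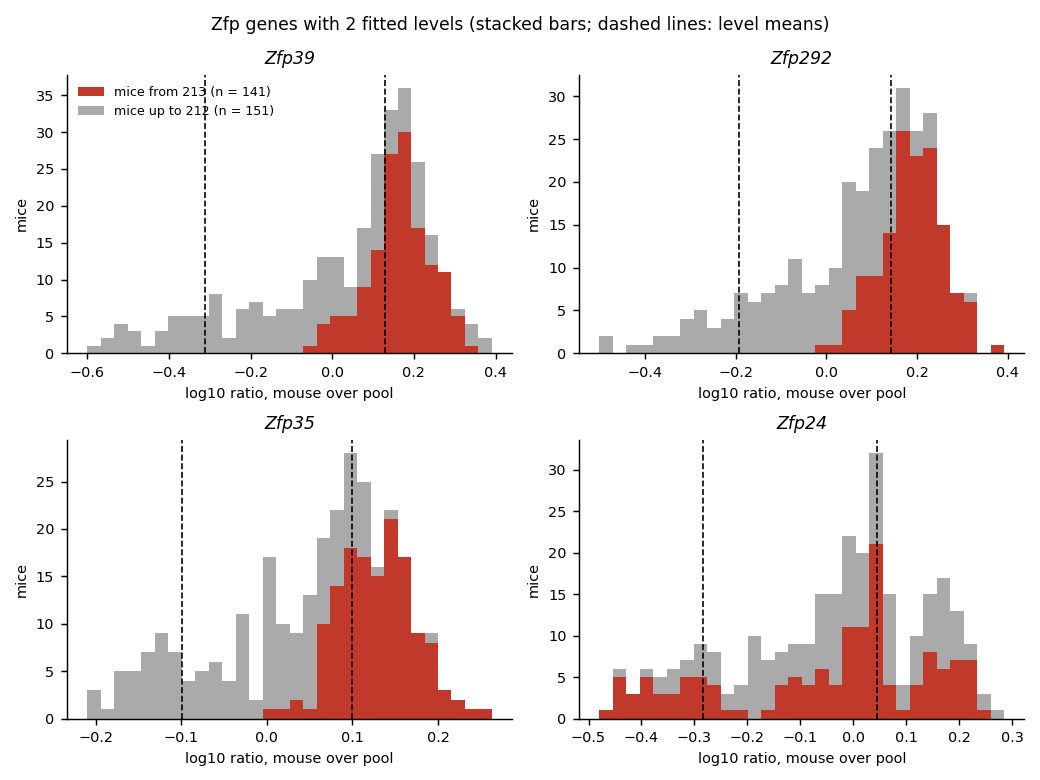
Number of mice (y axis) by log10 ratio of mouse to pool (x axis) for Zfp39, Zfp292, Zfp35 and Zfp24, with red bars for mice from 213 (n = 141) and grey bars stacked on them for mice up to 212 (n = 151), and dashed lines at the means of the 2 fitted levels. The lower tail is grey alone in Zfp39, Zfp292 and Zfp35, and holds both colours in Zfp24, whose red bars form 3 heaps.

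Within single sets few Zfp genes had called levels. Of the 137, 2 were called in mice from 213 alone, beside 6.17% of all named genes, 0 in form 2 mice up to 212, beside 2.51%, and 1 in form 1 mice up to 212, beside 2.11%. Zfp33b in mice from 213 had 3 levels at -0.0546, 0.0484 and 0.129, with 28, 71 and 42 mice. Zfp428 in mice from 213 had 2 levels with 126 and 15 mice, and Zfp341 in form 1 mice had 2 with 69 and 5 mice. Zfp111 in mice from 213 was fitted by 3 levels at -0.254, 0.0519 and 0.218 with 35, 86 and 20 mice, 2.57 SDs apart at the closest and so not called.

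Genes with the most similar pattern across mice were then named for each, by the size of Pearson r after removal of set means (n = 292 mice, which share the pool and, within a set, any array effect). Zfp24 on chromosome 18 was most like Hbegf (r = 0.819) and Pcdhb2 (r = 0.78), both on chromosome 18, and 9 of its 10 most similar genes lay there. For Zfp109 on chromosome 7, Zfp871 on chromosome 17, Zfp94 on chromosome 7 and Zfp33b on chromosome 5 the numbers on the own chromosome were 9, 9, 8 and 7 of 10. Of the 134 Zfp genes with a known chromosome, 10 (7.46%) had at least 5 of their 10 most similar genes on it. The share was 5.12% for all named genes. In the step 0 of these 10 were called, where 4.06% of all named genes were called higher and 3.95% lower. Over all 137 Zfp genes those shares were 19.7% and 5.84%. Zfp638, Zfp39, Zfp292 and Zfp35, with large steps, had 0 of 10, as did 47% of the 134 Zfp genes and 53.6% of all named genes.

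Neighbouring Zfp genes on chromosome 17 varied together across mice, while those on chromosome 7 had a median r near 0. Over all 9316 pairs the median r was 0.0249, against -0.0016 for all named genes. For 95 pairs within 10 named genes of each other the median r was 0.323, and 0.217 after the mean of each set was removed, against 0.0269 and 0.0236 for all 106516 such pairs of named genes. The 27 such pairs on chromosome 17 had a median of 0.625, and 0.541 after removal, while the 39 on chromosome 7 had -0.0252 and -0.0921. Within mice from 213 alone the medians were 0.478 on chromosome 17 and -0.0728 on chromosome 7. On chromosome 7, Zfp109 and Zfp94, 3 genes apart, nonetheless had r = 0.881, from 0.877 to 0.895 within the 3 sets. On chromosome 17, Zfp959 and Zfp97 had r = 0.831 after removal of set means although 361 genes apart, so likeness there was not confined to neighbours. The part of cross-hybridisation between paralogues in these values was not tested.

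Other close pairs lay on different chromosomes. The largest r between 2 Zfp genes, 0.934, joined Zfp42 on chromosome 8 and Zfp462 on chromosome 4. It was 0.919 in mice from 213, 0.95 in form 2 and 0.955 in form 1 mice up to 212. Both genes were closer still to named genes outside the Zfp symbol. Over all named genes the 10th largest r in size was 0.941 for Zfp42 and 0.951 for Zfp462, so the likeness was not particular to this pair. A second probe of Zfp42 had r = -0.146 with the first, so the pair rests on 1 probe of that gene. Zfp644 on chromosome 5 stood in 5 of the 10 closest pairs, with Zfp53, Zfp638, Zfp101, Zfp959 and Zfp120 (r from 0.813 to 0.819), all called higher in the step, and values within sets from 0.737 to 0.886. Zfp292 ran opposite to Zfp653 (r = -0.817), with -0.606 in mice from 213, -0.882 in form 2 and -0.842 in form 1 mice.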

How the data were processed

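Brain RNA of 292 F2 mice was hybridised on 2-colour arrays against a common pool. The authors deposited 1 log10 ratio per probe and array; base and direction were inferred, and the image analysis, background correction and normalization were not found in the labels or headers. Signal intensities were not used, so how far a ratio stands above background is unknown, and the stated precision reflects the number of arrays alone. Of 23574 probes, 25 missing on more than 5% of arrays were left out and 252 further gaps were set to the mean of their probe. Symbols came from the platform annotation, updated through the mouse gene table of GRCm38.p6 by gene identifier, which also gave chromosomes and gene order.

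Differences and slopes were fitted in R 4.3.3 over 23549 probes by limma 3.58.1 (Benjamini-Hochberg adjusted p), and mixtures by mclust 6.1.1. Both were tested on simulated data. All 292 mice formed 1 group, and the splits used the labels' mouse number and description form alone. Genes named were the 8 with the largest called step in each direction, the 8 with the largest SD, the 8 with the clearest levels, role lists, partners and the closest pairs. Zfp33b, Zfp111, Zfp341, Zfp428, Zfp281 and other genes near a threshold, all other genes named, the ranges of mouse number and the counts of most similar genes were chosen after their values were seen. The Zfp genes, the lists and the split at 213 were chosen with earlier results of these data known, so they are no independent support. Alternatives changed centring, scaling, normalization, weights, probes, thresholds and arrays. Arrays had SDs over probes between 0.0437 and 0.199.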

Additional observations from a re-analysis of the deposited data

How the results depend on the processing

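The 27 higher and 8 lower calls in the step became 70 and 40 with no fold threshold and 4 and 0 at 1.5-fold, and lay between 21 and 29 higher and 6 and 8 lower under the other settings tried. Among the 35 called genes, 312 combinations of gene and setting kept the call and 38 lost it with the same sign, 13 of them with 20 arrays on each side, where fewer arrays were used, 6 with equal array spread and 6 with quantile normalization. Steps of single uncalled genes were recomputed for some of the genes named, and of these Zfp207 was called in 3 settings, and 3 turned sign without passing the test: Zfp106 (-0.00162) and Zfp57 (-0.0301) with 20 arrays on each side and Zfp445 (-0.000177) with array weights, for which the cause was not tested. Leaving out the 13 arrays with an SD over 0.1 (10 of them from 213) or the genes without a table identifier gave 25 or 26 higher and 8 lower calls. These choices, and equal spread joined with removal of set means (median r 0.0208), were added after the data were seen. Discrete levels, 11 in the setting reported, numbered 2 after removal of set means, 2, 0 and 1 in mice from 213, form 2 and form 1 mice up to 212 alone, with 0 genes called in all 3 of these sets, 4 with unequal variances, 25 at over 2 SDs and 0 at over 4 SDs. With equal array spread, Zfp110, Zfp287, Zfp2, Zfp653 and Zfp521 of these 11 were lost. The median SD was 0.0491 within the mice from 213, 0.0579 within form 2 and 0.057 within form 1 mice up to 212, and 0.0556 after removal of set means. The median r of pairs was 0.0311 in form 1 mice and 0.0311 by Spearman. The form comparison had 0 calls in every setting run. No paired analysis was possible because all mice formed 1 group with 1 array each.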

Other observations

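Galnt3, a glycosyltransferase gene on chromosome 2, followed Zfp39 on chromosome 11 with r = 0.995 after set means (mice from 213, form 2, form 1) were removed, and Morn3 on chromosome 5 followed it with r = 0.989 (n = 292 mice). Neither lies near Zfp39, and a second probe of Zfp39 had r = 0.511 with the first. Pkd1l3 on chromosome 8 followed Zfp462 with r = 0.973, and Ppm1m on chromosome 9 followed Zfp42 with r = 0.954. These genes were named after their values were seen. Probe sequences were not used here, and shared hybridisation between such probes was not tested.

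The first principal component of all other probes, after set means were removed, took 12.3% of the variance. Of the 137 Zfp genes, 29 (21.2%) had a correlation with it over 0.5 in size, beside 21.5% of all named genes. Zfp2 had r = 0.826 with it, Zfp39 0.35 and Zfp24 0.128, across 292 mice that share the pool.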
